A study of Apis mellifera with 12 samples.

Results

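The microRNAs ame-miR-9a, ame-miR-79 and ame-miR-306, below without the species prefix, were examined in the brains of adult worker honey bees (Apis mellifera). They were taken by name from an array with 168 bee miRNA probes, where each is 1 probe printed as 18 spots. All 3 were among the 84 miRNAs that passed the brightness filter and were tested, miR-9a and miR-306 at its minimum of 6 arrays. The arrays held 6 brain pools of bees injected with double-stranded RNA against vitellogenin (dsRNA-Vg, here dsVg) and 6 of sham controls injected with double-stranded RNA against green fluorescent protein (dsRNA-GFP, here dsGFP). Both groups received 2 µL at 10 µg/µL, dorsally in the abdomen, as newly emerged workers, and both were sampled as adults of 15 days whose brains the labels call forager brains. Each pool mixed the small RNA of 5 bees, 200 ng from each for a total of 1 µg, and was read on 1 array in 1 colour (Cy3). The injection was made in the abdomen and not in the brain, and the array carries no vitellogenin probe, so how far vitellogenin fell in these bees was not measured on it. The comparison asks whether reducing vitellogenin is followed by a change of these miRNAs in the brain.

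A miRNA guides an Argonaute protein to messenger RNAs that pair with its seed, bases 2 to 8 from its 5′ end, and lowers the output of those messengers. The miR-9 family is among the most conserved animal miRNA families and acts in neural precursors. In Drosophila, miR-9a keeps the number of sensory organ precursors in check by limiting the transcription factor Senseless, and miR-306 and miR-79 are transcribed from a cluster that also holds copies of miR-9. Vitellogenin, a yolk precursor made in the fat body, acts in worker bees on the timing of foraging.

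The sequences are shown because the seeds decide which probes form a family. They are the target sequences given with the array spots, 5′ to 3′, with the seed in capitals.
miR-9a: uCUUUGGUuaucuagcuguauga
miR-9b: gCUUUGGUaaucuagcuuuauga
miR-79: uAAAGCUAgauuaccaaagca
miR-9c: uAAAGCUAguucagcaaggca
miR-306: uCAGGUACugagugacucugag
miR-275: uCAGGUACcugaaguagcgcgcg
The 3 members carry 3 different seeds, and each seed was found on exactly 2 of the 168 probes. miR-9a shares its seed with miR-9b, and the pair is identical at 20 of 23 positions counted from the 5′ end. miR-79 shares its seed with miR-9c, with 17 of 21 positions identical, so the probe named miR-9c belongs by its seed with miR-79 and not with miR-9a. miR-306 shares its seed with miR-275, but only 10 of their 22 compared positions are identical. Cross-hybridisation between the near-identical pairs was not tested.

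miR-79 and miR-9b are complementary to each other over a run of 20 bases, whereas the longest complementary run of miR-79 with miR-9a is 8 bases. In the RefSeq annotation (Amel_HAv3.1), Mir306, Mir79 and Mir9b are consecutive miRNA genes, Mir79 and Mir9b overlap each other, and all overlap the protein-coding gene LOC413964. Mir9a is annotated elsewhere, between Mir9880 and Mir281, and overlaps no other gene in that table. The cluster neighbour of miR-79 and miR-306 among the miR-9 probes is therefore miR-9b, not miR-9a. The G+C content of the members was below the array median of 45.5% for miR-9a (34.8%) and miR-79 (33.3%) and above it for miR-306 (50%).

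All 3 members were dim. Each array carried 608 spots without a probe, called empty spots, and a miRNA was counted as detected on an array where the mean of its 18 spots exceeded the 95th percentile of those empty spots. The arrays split by how many of the 168 miRNAs they detected: 6 arrays detected between 97 and 168 (dsGFP pools 1, 3 and 4, dsVg pools 1, 2 and 3) and the other 6 between 34 and 60. Each group had 3 arrays of either kind, and these are named below as arrays with over 80 and with 80 or fewer detected miRNAs. miR-9a and miR-306 were detected on 6 arrays, 3 per group, all of them with over 80 detected miRNAs. Detection says little on dsGFP pool 1 and dsVg pool 1, which detected 165 and 168 of the 168 miRNAs, yet both count among those 6. On dsVg pool 1 miR-9a, miR-79 and miR-306 read 360, 362 and 359, none above the median miRNA (362). miR-79 was detected on those 6 and on dsGFP pool 2, which makes 4 dsGFP and 3 dsVg arrays. By its header the file of dsGFP pool 1 gives a median per spot where the others give a mean, and that of dsVg pool 5 holds whole numbers. On the remaining arrays the signal did not exceed the empty spots' 95th percentile, so this rule does not tell it from background. It enters the fits below at its measured value. The empty spots are an imperfect measure of background. On dsGFP pool 2 and dsVg pools 4, 5 and 6 the median empty spot read above the median miRNA. On dsVg pools 4 and 6, miR-9a was not detected but read above the median miRNA (155 against 113 and 262 against 209).

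The raw intensity of miR-9a ranged in the dsGFP pools from 117 to 351 with a median of 247, and in the dsVg pools from 144 to 638 with a median of 298. Scanner background differed more between arrays than these medians did: the median empty spot ranged from 74.8 to 478. Against the median empty spot of its own array, miR-9a lay between 70.0% and 494%, with a median of 116%. The high value came from dsVg pool 3, where all 18 spots were above the empty spots' 95th percentile and read between 491 and 858. dsGFP pool 3 was next, at 245%, and the other 10 arrays were at or below 126%.

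The raw intensity of miR-79 ranged from 116 to 426 in the dsGFP pools (median 246) and from 149 to 362 in the dsVg pools (median 311). Relative to the empty spots its range was 75.1% to 278% with a median of 118%, and dsVg pool 3 was again the highest, followed by dsGFP pool 3 at 159% and dsGFP pool 2 at 133%. The raw intensity of miR-306 ranged from 92.9 to 298 in the dsGFP pools (median 246) and from 112 to 359 in the dsVg pools (median 186). It never rose above 124% of the empty median, and on 4 arrays it was below it. On those 4, dsGFP pool 2 and dsVg pools 4, 5 and 6, the median of all 168 miRNAs was also below the empty median. Of the members, miR-306 was the one without a bright array: dsVg pool 3, where miR-9a and miR-79 peaked, gave it 123%.

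**Figure D1:**
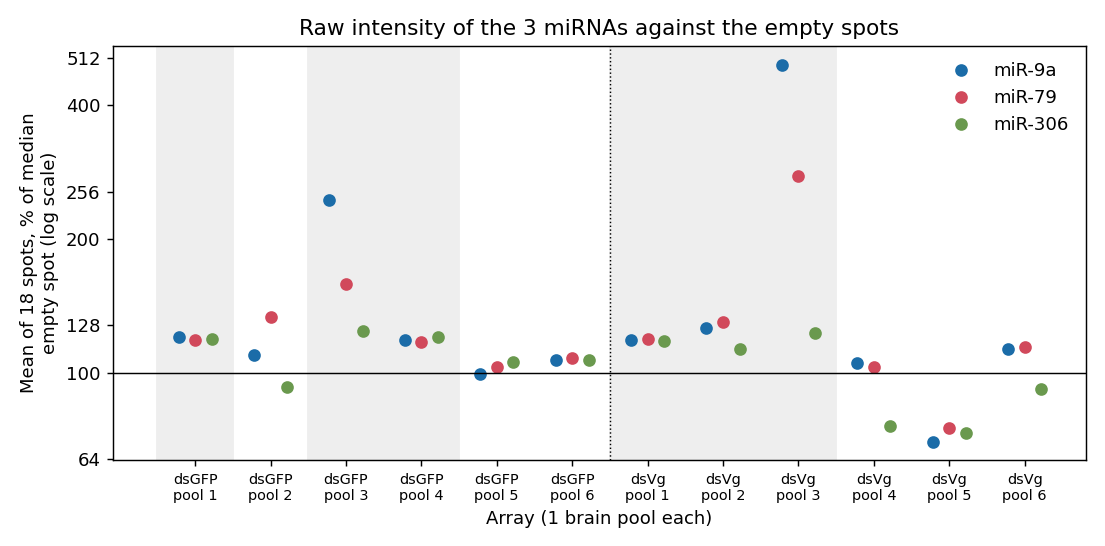
Raw intensity of the 3 members on each of the 12 arrays, as a percentage of that array's median empty spot (log axis; horizontal line: the empty median; grey: the 6 arrays with over 80 detected miRNAs; dotted line: between the dsGFP and dsVg pools). Most points lie close to the empty spots, and miR-9a reaches 494% and miR-79 278% in dsVg pool 3.

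After background correction and quantile normalization, miR-9a ranged from 6.44 to 7.32 in the dsGFP pools (median 6.89) and from 6.55 to 7.88 in the dsVg pools (median 7.14) on the log2 scale. Its lowest control was pool 5 and its highest knockdown pool was pool 3, and the groups overlapped. The mean was 6.91 ± 0.30 (SD, n = 6) in dsGFP and 7.09 ± 0.49 (SD, n = 6) in dsVg, a difference of 0.18 (SE 0.22, 95% interval -0.30 to 0.67). miR-9a did not pass the test (limma, adjusted p = 0.817 over the 84 miRNAs; two-sided exact permutation p = 0.474), with 4 of 6 dsVg pools above the control mean. Without dsVg pool 3 the difference was 0.024, and without dsVg pool 1 it was 0.30. Without both dsGFP pool 1 and dsVg pool 5, whose files differ in kind, it was 0.31.

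miR-79 ranged from 6.52 to 7.43 in the dsGFP pools (median 6.86) and from 6.64 to 7.24 in the dsVg pools (median 7.13) on the normalized log2 scale. The highest of all 12 pools was a control, dsGFP pool 2, and the groups overlapped. The means were 6.89 ± 0.30 and 7.01 ± 0.28 (SD, n = 6 each), a difference of 0.12 (SE 0.16, 95% interval -0.24 to 0.47). miR-79 did not pass the test (limma adjusted p = 0.822, exact permutation p = 0.489), with 4 of 6 dsVg pools above the control mean. The difference was 0.22 without dsGFP pool 2 and 0.048 without dsGFP pool 5.

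miR-306 ranged from 6.62 to 6.99 in the dsGFP pools (median 6.78) and from 6.58 to 6.84 in the dsVg pools (median 6.66). In raw intensity its SD between pools was the middle of the 3 in either group (88.9 in dsGFP, 110 in dsVg). On the normalized log2 scale it varied least of the 3. The dimmer miR-9b varied less still there (SD 0.034 in dsGFP, 0.082 in dsVg). Again the groups of miR-306 overlapped. The means were 6.78 ± 0.13 and 6.68 ± 0.09 (SD, n = 6 each), a difference of -0.10 (SE 0.083, 95% interval -0.28 to 0.077), with 5 of 6 dsVg pools below the control mean. miR-306 did not pass the test either (limma adjusted p = 0.772, exact permutation p = 0.141). Without dsGFP pool 4 the difference was -0.067.

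None of the 3 members was called, against a background of 0% (0 of 84 miRNAs at an adjusted p under 0.05 by limma). The overlap of their groups is not particular to them: on the normalized log2 scale, 0 of the 84 (0%) had groups without overlap. At an unadjusted p under 0.05, limma found 3 of the 84 (3.57%) and the exact permutation test also 3 (3.57%), and no member was among them. These p-values take the 6 pools of a group, which the study describes as separate pools of different bees, as replicates. In pooled tissue, fewer cells of a type and less RNA per cell cannot be told apart.

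On the arrays with over 80 detected miRNAs, where all members were detected, the difference was 0.16 for miR-9a, 0.18 for miR-79 and -0.14 for miR-306 (n = 3 per group). On the arrays with 80 or fewer, where of the members only miR-79 was detected and on 1 array, it was 0.20, 0.058 and -0.063. No direction is read from these values, as most of the signals were not detected. The median SD between the 18 spots of an array, on the log2 scale before normalization, was 0.22 for miR-9a, 0.17 for miR-79 and 0.13 for miR-306. The highest on any array was 0.33, 0.27 and 0.35. Between pools of a group the SD was 0.71, 0.53 and 0.32 on that scale. After normalization it was 0.41, 0.29 and 0.11. The values compared between pools are means of 18 spots, whose median SE before normalization was 0.052, 0.041 and 0.031.

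**Figure D2:**
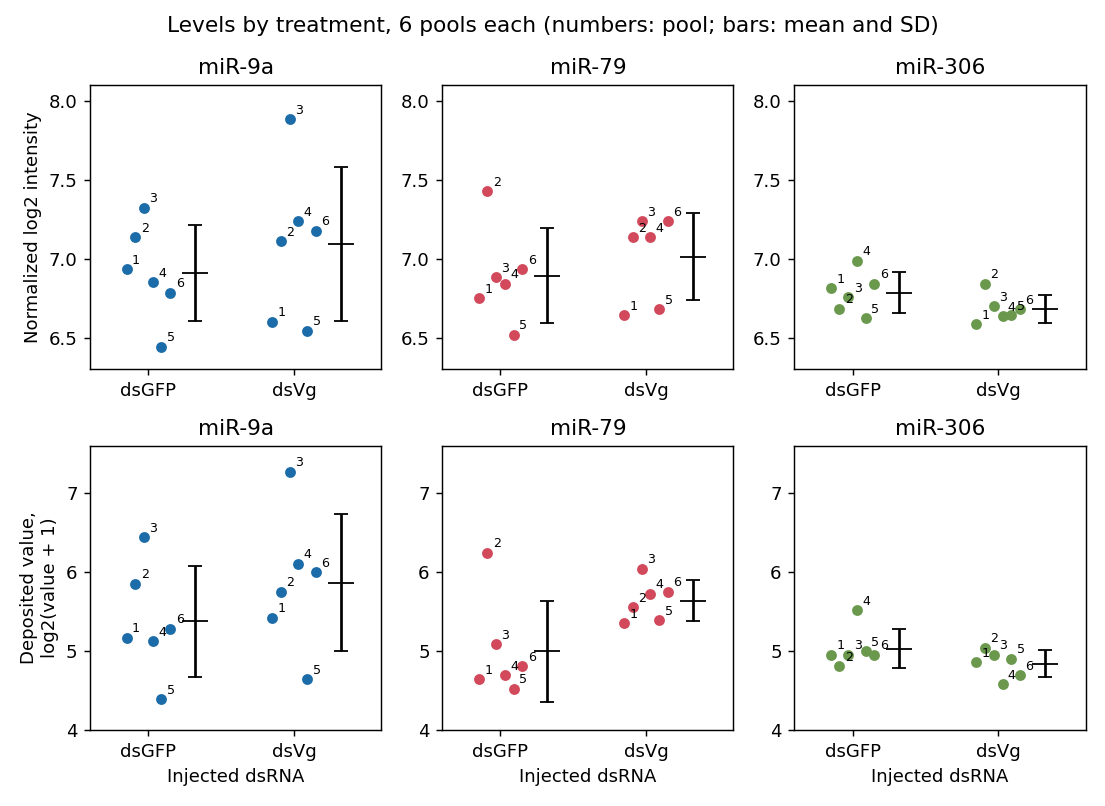
Level of each member in the 6 dsGFP and 6 dsVg pools, as normalized log2 intensity (top row) and as log2 of the deposited value plus 1 (bottom row); points are pools with their numbers, bars the group mean and SD. The groups overlap in every panel, and dsGFP pool 2 stands above the other controls for miR-79.

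The authors also deposited a table of processed values for the same arrays, in which the members are whole numbers between 20 and 154. In that table miR-9a was between 20 and 86 in dsGFP (median 36.5) and between 24 and 154 in dsVg (median 58), the 154 being dsVg pool 3. miR-79 was between 22 and 75 in dsGFP (median 26) and between 40 and 65 in dsVg (median 49). Of the control pools only pool 2, at 75, had a miR-79 value as high as those of the dsVg pools, since the other 5 were at 33 or below. miR-306 was between 27 and 45 in dsGFP (median 30) and between 23 and 32 in dsVg (median 28.5).

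On the log2(deposited value + 1) scale, which understates changes of low values, the dsVg minus dsGFP difference of miR-79 was 0.64 (SE 0.28, 95% interval 0.043 to 1.23), with 6 of 6 dsVg pools above the control mean. Its unadjusted limma p was 0.0375 and its exact permutation p 0.0519, but the adjusted p was 0.525 and it was not called. Of the 84 miRNAs in these deposited values, 0% passed the adjusted threshold, 3.57% were higher at an unadjusted limma p under 0.05, and 7.14% differed in either direction. Without dsGFP pool 2 the difference of miR-79 was 0.89 with an adjusted limma p of 0.0369, and miR-79 was then the 1 miRNA of 84 that passed. That pool was on an array with 80 or fewer detected miRNAs, yet its miR-79 was detected there, with 18 of 18 spots above the empty spots' 95th percentile. Nothing in the labels sets dsGFP pool 2 apart from the other controls, and among 18 alternatives run on the deposited values, miR-79 was called only in the 1 without that pool.

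For miR-9a the difference in the deposited table was 0.49 (SE 0.41, limma adjusted p = 0.652, exact permutation p = 0.314), and 0.21 without dsVg pool 3. For miR-306 it was -0.19 (SE 0.17, limma adjusted p = 0.663, exact permutation p = 0.152), and -0.09 without dsGFP pool 4. The directions were those of the scanner values for all 3 members. For miR-79 the deposited difference was 0.84 on the arrays with over 80 detected miRNAs and 0.43 on the others, where it was detected on 1 array.

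The size of each difference moved with the processing. Subtracting the empty-spot median in place of the model-based correction gave 0.60 for miR-9a, 0.49 for miR-79 and -0.49 for miR-306. The SEs were then 0.78, 0.63 and 0.34, against 0.22, 0.16 and 0.083 at the reported setting. With no background correction they were smaller, at 0.15, 0.11 and 0.052. The intervals given for the reported setting therefore hold for that setting only, and do not exclude the larger changes that other corrections allow. Without normalization between arrays the differences were 0.43, 0.34 and 0.038, so that miR-306 changed sign, and the median of all 84 miRNAs was then 0.15. Scaling every array to the 75th percentile of the 33 miRNAs detected on all arrays gave -0.03, -0.12 and -0.42, so that miR-9a and miR-79 changed sign, and the median of all 84 was then -0.31. Relative to the median of all 84, the differences at both of these settings were 0.28, 0.19 and -0.11. Scaling by a single factor per array shifts all miRNAs equally and cannot alter these values. Quantile normalization, the reported setting, can alter them, and there they were 0.16, 0.094 and -0.13. Under these settings, 30 alternatives per member for the scanner values with the deposited table as 1 of them, no member passed an adjusted p of 0.05.

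**Figure D3:**
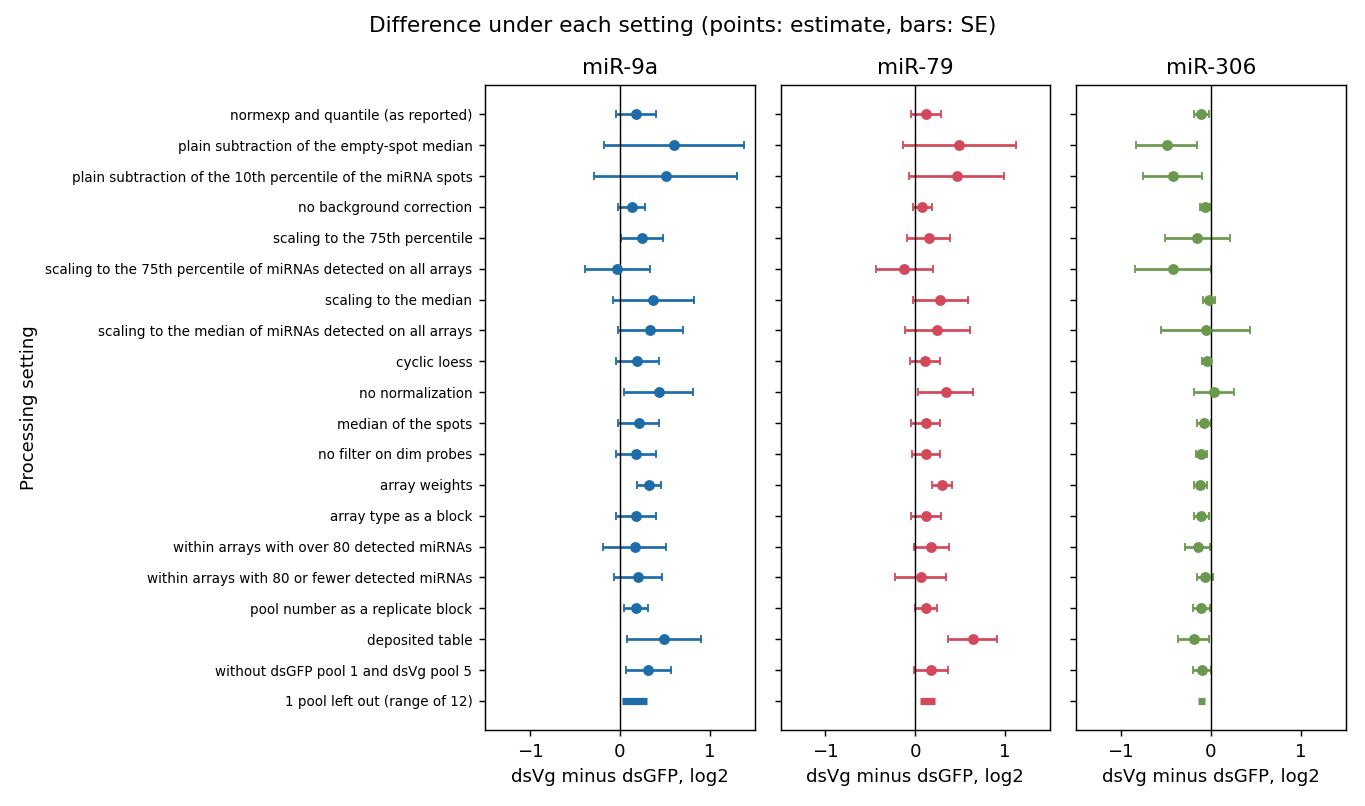
Difference between dsVg and dsGFP on the log2 scale for each member under each processing setting (points: estimate; bars: SE; thick bar in the last line: range over the 12 fits that each leave out 1 pool; vertical line: no difference). The estimates for miR-9a and miR-79 lie right of 0 except under scaling to the 75th percentile of the miRNAs detected on all arrays, and those for miR-306 left of 0 except without normalization.

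Within 1 array, the log2 ratio of 2 members does not depend on a scaling factor between arrays. The ratio of miR-9a to miR-79 was 0.0064 ± 0.39 in dsGFP and 0.10 ± 0.42 in dsVg (SD, n = 6), a difference smaller than either SD. The ratio of miR-9a to miR-306 was 0.23 ± 0.48 and 0.62 ± 0.97, and that of miR-79 to miR-306 was 0.22 ± 0.44 and 0.52 ± 0.56, with the dsVg means higher but the SDs larger than the differences. dsVg pool 3 was the pool with the widest ratios, 2.49 for miR-9a to miR-306, 1.55 for miR-79 to miR-306 and 0.94 for miR-9a to miR-79. Leaving out single pools moved the dsVg minus dsGFP difference of the miR-9a to miR-306 ratio between 0.019 (without dsVg pool 3) and 0.56. With all pools it was 0.39 with the model-based correction and 0.29 without background correction. Subtracting the empty-spot median raised that difference to 1.10, and in the deposited table it was 0.68. That of miR-79 to miR-306 fell from 0.30 to 0.095 without dsVg pool 3. That of miR-9a to miR-79 was 0.093 and turned negative without dsVg pool 3 (-0.075), without dsGFP pool 2 (-0.012) and in the deposited table (-0.15). Each probe has its own hybridisation efficiency, so these ratios compare pools and not amounts of the miRNAs.

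Across the 12 pools, the levels of miR-9a and miR-79 were positively correlated, and those of miR-306 had correlations near 0 with both. Pearson's r between miR-9a and miR-79 was 0.75 (permutation p = 0.00415, adjusted 0.0644 over all 3486 pairs of tested miRNAs), and Spearman's rho was 0.77 (permutation p = 0.00476, adjusted 0.101). Neither passed the adjustment, beside 5.39% of all pairs that did by Pearson's r. Leaving out dsGFP pool 5 and dsVg pool 3, the 2 farthest from the median of miR-9a, r was 0.71. Within the arrays with over 80 detected miRNAs r was 0.84, and within the others 0.93 (6 arrays each). On those others miR-9a was not detected and miR-79 only on dsGFP pool 2. The correlation depends on the scaling: it was 0.24 after scaling to the 75th percentile and 0.84 without normalization. The latter passed the adjustment, but so did 27.7% of all pairs at that setting (24.3% with the 75th percentile), so the call is not particular to this pair.

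The correlation of miR-306 with its annotated neighbour miR-79 was 0.068 (rho 0.28, permutation p = 0.834 and 0.380, adjusted 0.930 and 0.712). With miR-9a it was 0.091 (rho 0.21, permutation p = 0.774 and 0.501, adjusted 0.900 and 0.784). Leaving out the 2 farthest pools in the same way gave 0.0033 and 0.064. After scaling to the 75th percentile the correlation of miR-79 with miR-306 was 0.66, and that of miR-9a with miR-306 was -0.12.

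**Figure D4:**
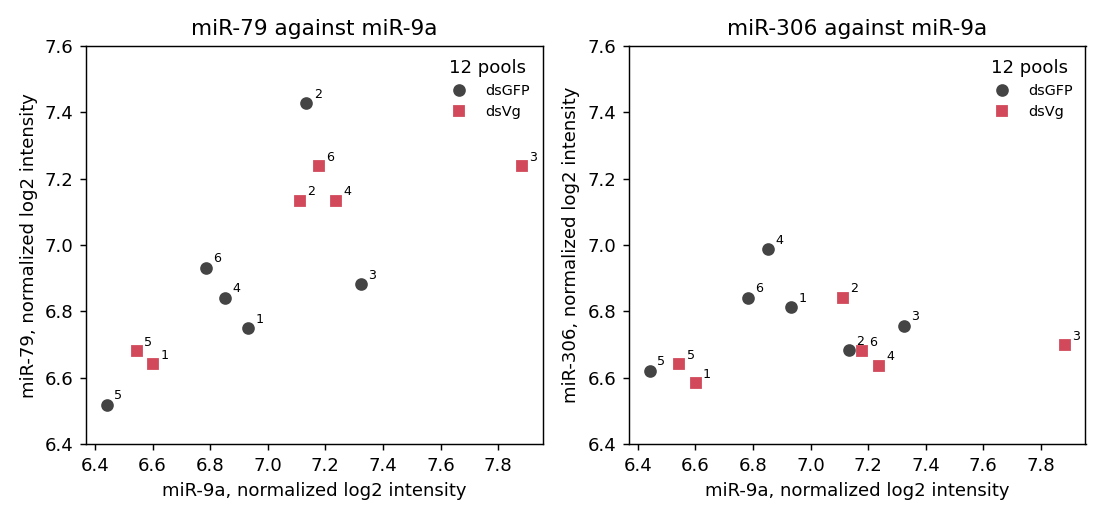
Normalized log2 intensity of miR-79 (left) and miR-306 (right) against that of miR-9a in the 12 pools (circles: dsGFP; squares: dsVg; numbers: pool). miR-79 tends to be higher where miR-9a is (r = 0.75), with dsGFP pools 2 and 3 and dsVg pool 3 off the main run of points, and miR-306 shows no such course (r = 0.091).

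By Pearson's r over the same 12 arrays, the tested miRNAs most like miR-9a were miR-79 (0.75), miR-927b (0.75) and miR-3776 (0.74). Those most like miR-79 were miR-928 (0.83), miR-927 (0.82) and miR-927b (0.79), so miR-927b stood near both. Those most like miR-306 were miR-2788 (0.63), miR-8 (0.59) and miR-993 (0.55), all lower than the likenesses of the other members. All these values share array brightness and the normalization.

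Of the probes that share a seed with a member, miR-275 was by far the brightest. It was detected on all 12 arrays, at 9.97 ± 0.28 in dsGFP and 10.58 ± 0.64 in dsVg (normalized log2, SD, n = 6). Its difference was 0.61 (SE 0.27), with an unadjusted limma p of 0.0425, an exact permutation p of 0.0368 and an adjusted limma p of 0.666, so it was not called. The difference was 0.38 without dsVg pool 5, 0.28 with cyclic loess and 0.095 after scaling to the 75th percentile of the miRNAs detected on all arrays. It was 0.34 on the arrays with over 80 detected miRNAs and 0.88 on the others. The difference of miR-306, which carries the same seed, was -0.10, while without normalization both were positive (0.55 for miR-275 and 0.038 for miR-306); the difference between the 2 was not tested. In RefSeq, Mir275 neighbours Mir305, overlaps the long non-coding RNA LOC102655676 and is not part of the miR-306 cluster.

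miR-9b, the other miR-9a seed and the neighbour of miR-79, was detected on 2 arrays, 1 per group. These were dsGFP pool 1 and dsVg pool 1, which detected 165 and 168 of the 168 miRNAs. On both, miR-9b read below the median miRNA (250 against 260 and 353 against 362). miR-9c was detected on 3 arrays, 1 in dsGFP and 2 in dsVg: those 2 and dsVg pool 2. Neither passed the filter on dim probes. Their normalized levels were 6.36 ± 0.03 and 6.43 ± 0.08 for miR-9b and 6.49 ± 0.07 and 6.61 ± 0.09 for miR-9c (dsGFP and dsVg, SD, n = 6 each), with differences of 0.07 and 0.12. With no filter and all 168 miRNAs in the fit, the unadjusted limma p was 0.117 for miR-9b and 0.0389 for miR-9c, and the adjusted limma p was 0.767 for both. In the deposited table miR-9b was between 4 and 24 and miR-9c between 9 and 30, beside 20 to 154 for the members.

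A list of 16 miRNAs with known roles in neural precursors or sensory organs was read beside the members, 15 of them tested. None was called against a background of 0%, with 7 higher, 8 lower and a median difference of -0.03, beside 0.03 for all 84. The nearest was miR-124, the neuronal miRNA of animals, at 9.60 ± 0.33 in dsGFP and 10.46 ± 1.04 in dsVg (limma adjusted p = 0.666). miR-92a, whose gene follows Mir9b in the annotation, had a difference of 0.33 (SE 0.17, limma adjusted p = 0.666), and its relative miR-92b one of 0.15 (SE 0.096, limma adjusted p = 0.772). miR-263b, which protects sensory bristles in Drosophila, had a difference of 0.32 (SE 0.27, limma adjusted p = 0.772).

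The brain label was read against miRNAs typical of nervous tissue: miR-124, miR-7 and miR-276 were detected on all 12 arrays. The muscle miRNAs miR-1 and miR-133 were detected on 11 and 12 arrays, and miR-375, miR-989 and miR-750, known from gut or endocrine cells, on 9, 10 and 6. From dsGFP to dsVg, the group means of miR-124, miR-7 and miR-276 went from 9.60 to 10.46, from 12.45 to 12.03 and from 13.63 to 13.76. Those of the muscle pair moved in opposite directions, from 8.96 to 8.06 for miR-1 and from 8.47 to 9.04 for miR-133. Those of miR-375, miR-989 and miR-750 went from 7.26 to 6.88, from 7.56 to 8.04 and from 6.66 to 6.77. None of these was called at the reported setting (miR-375 passed with array weights), and their part in the members' values was not tested.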

How the data were processed

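Small RNA of 12 brain pools was hybridised to LC Sciences arrays, per the labels' protocols. The authors deposited scanner files with the fluorescence intensity of 3968 spots per array, and a table of processed intensity values; its normalization is not stated in the labels or file headers read here. The files give no separate background, and the number of arrays, 12, limits the precision. Spots were corrected with normexp (offset 50), taken to log2, averaged over 18 spots per probe and quantile-normalized over 168 miRNAs. A miRNA was tested if detected on at least 6 arrays (84 were). Groups were compared with limma 3.58.1 in R 4.3.3 (lmFit, eBayes), adjusted by Benjamini-Hochberg over 84, and with exact two-sided permutation over 924 assignments, whose smallest p is 0.00216; the code was tested on simulated data. The deposited table was tested as log2(value + 1). Named besides the members were miRNAs sharing a seed, the 3 most correlated with each member, and listed miRNAs of smallest p. Members and lists were chosen with earlier results of these data known. No 2 arrays of a group agreed within sampling noise (chi-square per degree of freedom at least 22.8). Sequences are the array files' own. RefSeq gave names, gene order and overlaps between genes; no coordinates are printed.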

Additional observations from a re-analysis of the deposited data

Results flagged for a closer look

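In 36 groups of 6 pools, the gap between an extreme pool and its nearest neighbour was compared with the group's range, and 8 exceeded Dixon's 95% value; chance gives about 1 in 20. All 3 members had such a pool among the deposited values, taken without logs; on the log2(value + 1) scale those of miR-79 and miR-306 still exceeded the limit (0.673 and 0.731) and that of miR-9a did not (0.444). No member had one on the normalized log2 scale. miR-9a was at 154 in dsVg pool 3, with the next pool at 68. miR-79 was at 75 in dsGFP pool 2, with the next at 33. miR-306 was at 45 in dsGFP pool 4, with the next at 31. On the normalized log2 scale, miR-275 was high in dsGFP pool 4 (10.51, next 10.00) and miR-3776 in dsGFP pool 3 (7.49, next 6.85). miR-928 was low in dsVg pool 1 (6.47, next 6.60), and dsGFP pool 5 was low for miR-993 (7.03, next 7.49) and for miR-92b (6.53, next 6.74).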

How the results depend on the processing

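Of 30 alternatives, 3 (no filter on dim probes, array type or pool number as a block) cannot move the estimate. Each member kept its direction in 26 of the other 27 and was called in none of the 30, with adjusted p between 0.246 and 0.995 for miR-9a and miR-79 and between 0.461 and 0.995 for miR-306. The exceptions in direction were miR-9a (-0.027) and miR-79 (-0.12) under scaling to the 75th percentile of miRNAs detected on all arrays, a setting chosen after seeing the data, and miR-306 without normalization (0.038); the cause was not tested. Leaving out 1 pool, the differences ran from 0.024 to 0.30, from 0.048 to 0.22 and from -0.14 to -0.067, and in the deposited table from 0.21 to 0.73 for miR-9a, from 0.54 to 0.89 for miR-79 (passing only without dsGFP pool 2) and from -0.24 to -0.093 for miR-306. With array weights 1 of 84 miRNAs passed limma's adjusted threshold, miR-375 (-0.44), and miR-9a and miR-79 were at 0.32 and 0.30. With a limit of the mean plus 3 SD of the empty spots, miR-9a was detected on 4 arrays in place of 6, miR-79 on 4 in place of 7 and miR-306 on 3 in place of 6. The difference in the miR-79 to miR-306 ratio was 0.86 after subtracting the 10th percentile of the miRNA spots and 0.83 in the deposited table, and ran from 0.095 to 0.47 leaving out 1 pool. The correlation of miR-9a and miR-79 passed without normalization (0.84), as did 27.7% of all pairs there, and that of miR-9a and miR-306 turned to -0.12 under the 75th percentile. Whether the pool numbers mark a pairing was not decided. Same-numbered pools correlated between -0.27 and 0.53, 2 of 6 over 0.1, and so few correlations cannot exclude one. Taking the pool number as a replicate block left the differences at 0.18, 0.12 and -0.10, and no member was called. The SE fell from 0.22 to 0.14 for miR-9a and from 0.16 to 0.12 for miR-79. For miR-306 it rose from 0.083 to 0.097.

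Higher and lower differences among the 84, none of them called, split 45 to 39, and 12 to 72 with the 75th percentile of miRNAs detected on all arrays, 59 to 25 with the median, 53 to 31 with the median of those detected on all arrays, and 67 to 17 without normalization. Other named miRNAs changed sign as follows. Scaling to the 75th percentile gave -0.0090 for miR-3776, 0.060 for miR-927b, -0.12 for miR-928 and -0.023 for miR-92b. The 75th percentile of those detected on all arrays gave -0.038 for miR-263b, -0.28 for miR-3776, -0.39 for miR-928, -0.17 for miR-92a, -0.29 for miR-92b and -0.24 for miR-993. The median gave 0.050 for miR-2788, 0.025 for miR-927 and 0.19 for miR-927b, and the median of those detected on all arrays 0.015 for miR-2788, -0.029 for miR-928 and 0.16 for miR-927b. No normalization gave 0.11 for miR-2788, 0.083 for miR-927 and 0.25 for miR-927b. Cyclic loess gave -0.034 for miR-3776, 0.052 for miR-927b and -0.089 for miR-993. Subtracting the empty median gave -0.32 for miR-3776 and 0.045 for miR-927b, and the spot median -0.023 and 0.0059. Array weights gave 0.0098 for miR-2788, 0.11 for miR-8, 0.33 for miR-927 and 0.55 for miR-927b. Arrays with over 80 detected miRNAs gave -0.16 for miR-3776, 0.075 for miR-927, 0.099 for miR-927b and -0.043 for miR-993, and the others 0.071 for miR-2788. The files of dsGFP pool 1, whose header names a median, and dsVg pool 5, which holds whole numbers where others hold fractions, differ in kind from the rest; without both, miR-9a was 0.31, miR-79 0.17, miR-306 -0.096, miR-275 0.36, miR-927 0.082 and miR-927b 0.21; in the deposited table miR-927b was 0.11. Leaving out 1 pool, miR-3776 ran from -0.053 to 0.14, miR-927 from -0.48 to 0.14, miR-927b from -0.13 to 0.28 and miR-993 from -0.038 to 0.13.

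The members lie close to the empty spots on most arrays, so a change of their level below that background would not be detectable. The intervals above bound only what the signal shows under the processing each was computed with.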
